A study of Homo sapiens with 8 samples.

Results

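The translation initiation and elongation factors were taken as every protein-coding gene whose symbol begins with EIF1 to EIF6, EEF1 or EEF2, leaving out the eIF2 kinases (EIF2AK) and EEF1E1. The rule gave 62 of the 58302 genes listed in both tables. Each was placed in a factor complex and compared between cells carrying a control hairpin (sh-NC) and cells carrying a hairpin against circMYBL2 (sh-circMYBL2), a circular RNA of the MYBL2 gene. The cells were of the established line MOLM-13, from an acute myeloid leukaemia, with an MLL-AF9 fusion and a FLT3 internal tandem duplication, which all groups share. Ribosome footprints, the RNA pieces that ribosomes shield from nuclease, and input RNA were sequenced in 2 libraries per hairpin, 8 libraries in all. The series title asks about translation in this leukaemia. The titles name 1 hairpin against circMYBL2, but the footprint columns of that group differ in a closing number that could mark a library or a hairpin. The labels do not say whether the libraries within a group were separate cultures, so p-values measure the spread between these libraries, which may be technical.

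Initiation begins when eIF2 carries the initiator tRNA to the small ribosomal subunit together with eIF1, eIF1A, eIF3 and eIF5, while eIF4F (the cap-binding eIF4E, the helicase eIF4A and the scaffold eIF4G) brings the mRNA. The eIF4E-binding proteins hold eIF4E back until mTOR kinase phosphorylates them, and eIF2B reloads eIF2 with GTP. The eEF1 complex then delivers each aminoacyl-tRNA and eEF2 moves the ribosome on. Many of these factors are made from TOP mRNAs, which start with a C followed by a run of pyrimidines and are translated when mTOR is active.

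Reads on genes numbered 13501743 to 14600090 in the input RNA libraries and 80134 to 714949 in the footprint libraries. Footprint reads on protein-coding genes numbered 33705 and 88682 in the sh-NC libraries, and 125741 and 584098 in sh-circMYBL2 libraries a and b. The share of footprint reads on microRNA genes was 42.7% and 57.2% for sh-NC, and 32.8% and 12.2% for sh-circMYBL2. Both depth and makeup of the footprint libraries thus moved with the hairpin, and their part in the footprint results below was not tested. All 10 myeloid marker genes reached 1 FPKM, while the 4 erythroid markers stayed at or below 0.0863 FPKM. The lymphoid and adherent lists each had 1 marker at or above 1 FPKM, reaching 1.05 and 1.19 FPKM.

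The members gave 282719 to 319097 input RNA reads and 490, 1507, 1872 and 8276 footprint reads (sh-NC 1, sh-NC 2, sh-circMYBL2 a, sh-circMYBL2 b). They made up 1.45% (95% Wilson interval 1.33% to 1.59%) and 1.70% (1.62% to 1.79%) of protein-coding footprint reads in the sh-NC libraries. For sh-circMYBL2 the shares were 1.49% (1.42% to 1.56%) and 1.42% (1.39% to 1.45%), so the 2 hairpins did not separate. In input RNA the shares were 2.67% and 2.66% (sh-NC) and 2.79% and 2.82% (sh-circMYBL2). The summed member footprints, scaled by the authors' totals, were 0.992 times the sh-NC level (interval 0.945 to 1.04), and 0.876 times (0.835 to 0.920) when scaled by protein-coding reads. These intervals cover counting error only.

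Input RNA was compared with limma on log2(FPKM + 1) for genes whose mean reached 1 FPKM, and a gene was called at a Benjamini-Hochberg adjusted p under 0.05 over all genes tested. Of the 62 members 58 were tested. EIF4B rose and 8 members fell: EEF1A2, EIF2S2, EIF3C, EIF5, EIF1, EIF3J, EIF4G3 and EIF4A2. Among all 12489 genes tested 4.92% were called higher and 3.96% lower, beside 1 and 8 of the 58 members. The median log2 change of members was 0.03 and that of all genes -0.0037. When the libraries were rescaled to equal sums over protein-coding genes, the median of all genes moved to 0.11 and the split became 16 members higher and 5 lower, beside 15.4% and 2.82% of 12503 genes. EIF4B, EEF1A2, EIF2S2, EIF3C, EIF3J and EIF5 were called the same way under both scalings, and EIF1, EIF4A2 and EIF4G3 were not called after rescaling. Leaving out any 1 RNA library left no call among members or other genes.

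**Figure D1:**
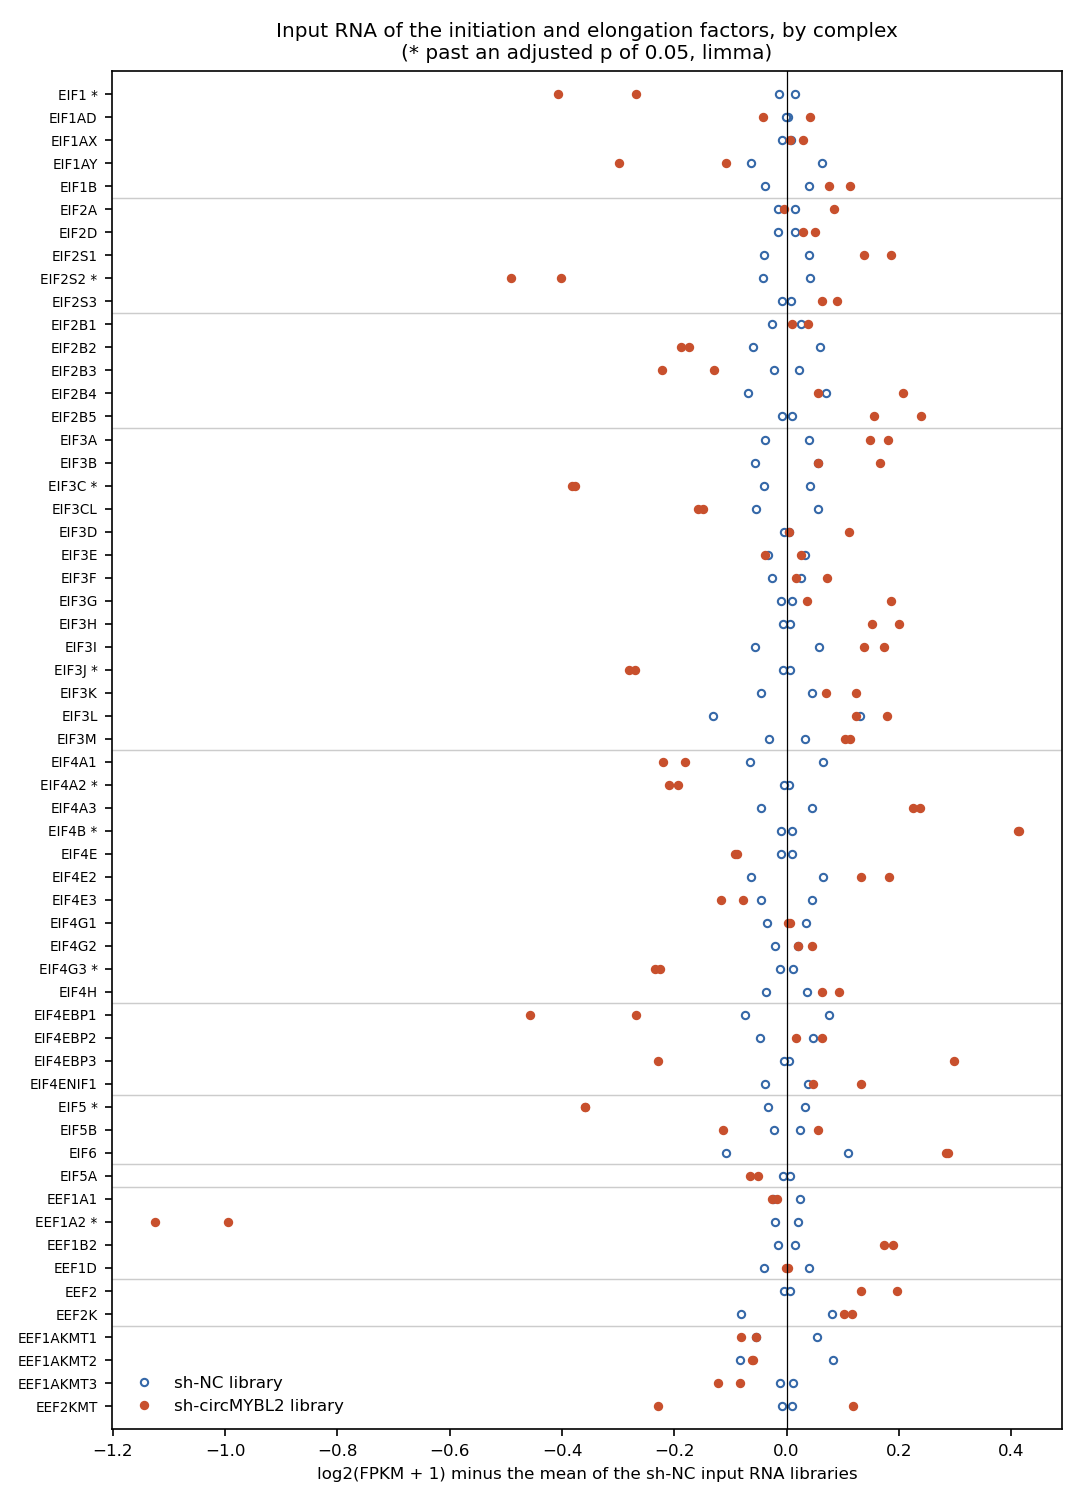
Input RNA of the 58 tested members, 1 row per gene, grouped by complex between grey lines. The x axis is log2(FPKM + 1) minus the mean of the sh-NC input RNA libraries, open points are sh-NC libraries, filled points sh-circMYBL2 libraries, and an asterisk marks an adjusted p under 0.05; EEF1A2 lies farthest to the left (log2 change -1.06) and EIF4B farthest to the right (0.41).

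Footprints were tested in the same way for 51 members, and no member passed; neither did any of the 9431 genes tested, a background of 0%. At an unadjusted p under 0.05, 5 members and 1212 genes stood, and voom, a weighted form of limma run on recovered reads, called 0 members, 6 genes higher and 48 lower. The libraries are therefore given one by one, sh-NC before sh-circMYBL2, with a statement of whether the groups overlap. Of the 51 members, 16 had both sh-circMYBL2 libraries above both sh-NC libraries, against 30.7% of all genes tested. Another 11 of 51 had both below, against 10.9%. The median log2 footprint change was 0.10 for members and 0.56 for all genes. Among genes with footprints in all 4 libraries, 22.5% of 4438 were higher without overlap and 21.9% lower, and of the 34 members so covered 11 were higher and 11 lower.

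Translational efficiency (TE) was the footprint change beyond the RNA change, fitted over all 8 libraries for 50 members and 8260 genes. EEF1B2 and EIF1B passed as higher, against 5.05% of all genes, and no member passed as lower, against 0.266%. Both were at 0 footprint reads in the sh-NC libraries. So were 396 of the 417 genes called higher, or 95.0%. At an unadjusted p under 0.05, 8 of the 50 members stood in TE. The matching share of all genes is not given here, so nothing is read from that count. In tests on simulated data of this depth the few TE calls fell on genes left unchanged. Those data held changes of a single size, given under processing, and larger changes were not simulated. The calls of EEF1B2 and EIF1B rest on 0 sh-NC reads, so they are reported beside their reads and carry little weight alone.

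**Figure D2:**
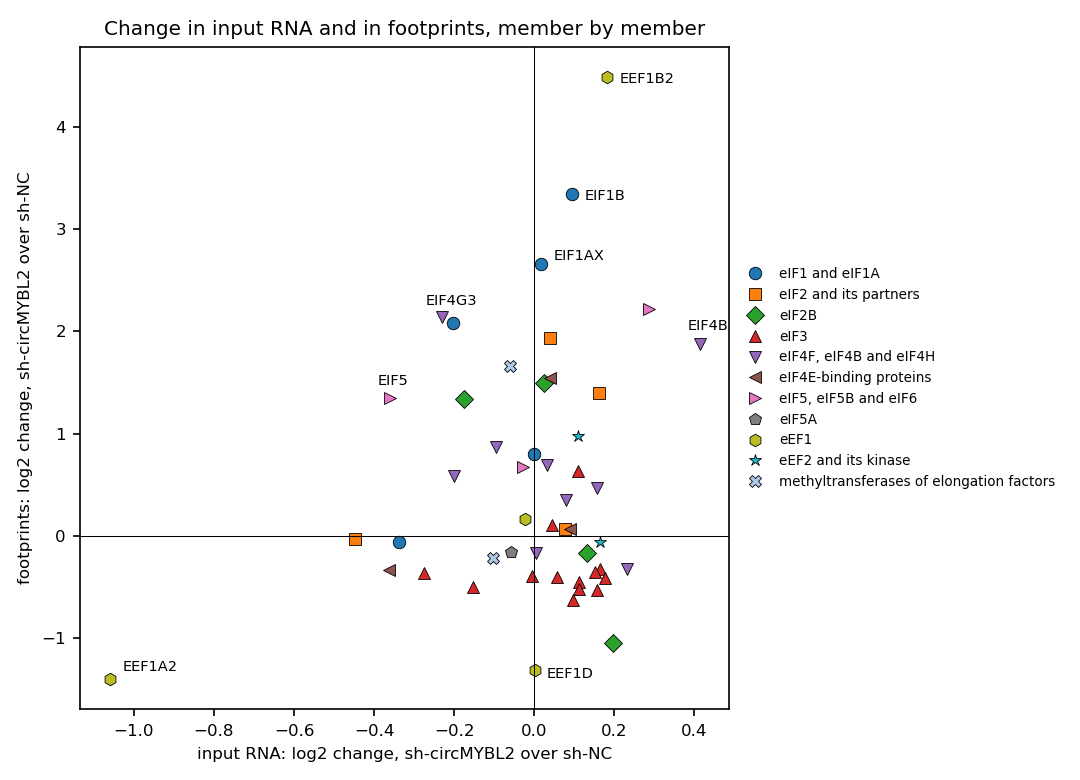
Each point is 1 of the 50 members tested in both assays, with its log2 change in input RNA on the x axis and in footprints on the y axis (sh-circMYBL2 over sh-NC, both on the log2(value + 1) scale) and its complex as colour and shape. Most eIF3 members (red triangles) lie just below 0 on the y axis and right of 0 on the x axis, while EEF1B2 (4.49) and EIF1B (3.34) lie highest.

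Most eIF3 members had lower footprints with sh-circMYBL2, though no single one passed the test. eIF3, the largest initiation factor, keeps the ribosomal subunits apart and recruits the other factors and the mRNA. Of its 13 members tested in footprints, 8 had both sh-circMYBL2 libraries below both sh-NC libraries: EIF3A, EIF3B, EIF3D, EIF3G, EIF3H, EIF3I, EIF3K and EIF3L. EIF3M was the single one higher without overlap, and 4 overlapped. With footprints in every library, 12 eIF3 members remained, of which 8 were lower and 1 higher, beside the 21.9% and 22.5% of genes given above. The median log2 footprint change over the 13 was -0.40, and 11 of 13 values were below 0. In input RNA the 14 eIF3 members had a median of 0.10, with 10 of 14 above 0. No eIF3 member passed in footprints or TE.

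EIF3A, the scaffold around which the complex is built, had 65.1 and 74.3 footprint RPKM in sh-NC cells, against 55.5 and 54.9 in sh-circMYBL2 cells. Its log2 footprint change was -0.33 (SE 0.35, adjusted p = 0.721). Its RNA stood at 212 and 224 FPKM in sh-NC cells, against 247 and 242, the opposite side. EIF3I, a WD-repeat subunit, had the highest eIF3 footprint level, 119.8 and 84.3 RPKM against 71.6 and 67.2. In EIF3I the gap between the groups was smaller than the gap between the sh-NC libraries. EIF3K, a small peripheral subunit, had 30.4 and 25.0 RPKM against 22.1 and 13.8, and the lowest log2 footprint change of the complex, -0.63 (SE 0.47, adjusted p = 0.627).

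EIF3B, which with EIF3A forms the core, had 29.7 and 33.5 against 19.3 and 27.0 RPKM. EIF3D, which can bind the cap of some mRNAs, had 32.9 and 38.4 against 30.4 and 23.4 RPKM. EIF3G, an RNA-binding subunit, had 17.4 and 23.2 against 16.6 and 11.3. In each of these the groups were apart by less than the gap between libraries of a group. EIF3H had 52.9 and 36.8 RPKM against 29.4 and 36.7, so its nearest libraries were 36.8 and 36.7. EIF3L had 14.1 and 20.1 against 12.6 and 13.4. The depth behind these values was low in sh-NC library 1, where EIF3A had 38 reads, EIF3I 17, and EIF3G and EIF3L 5 each.

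Summed over the complex, eIF3 took 0.540% (Wilson interval 0.467% to 0.624%) and 0.424% (0.383% to 0.469%) of protein-coding footprint reads in the sh-NC libraries. The sh-circMYBL2 libraries gave 0.319% (0.289% to 0.352%) and 0.330% (0.315% to 0.345%), below both sh-NC intervals. In input RNA the order was the other way, 0.674% and 0.685% against 0.736% and 0.745%. Scaled by the authors' totals, the pooled eIF3 reads were 0.814 times the sh-NC level (counting interval 0.742 to 0.894). Scaled by protein-coding reads they were 0.719 times (0.655 to 0.790). Under quantile normalization 5 of the 13 were lower without overlap. Without any 1 footprint library 8 to 11 were. Leaving out a library cannot make separate groups overlap, so that count could not fall and is no check.

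In eIF3 RNA, EIF3J and EIF3C fell. EIF3J, a loosely held subunit that helps release and recycle the small subunit, went from 72.9 and 73.6 FPKM to 60.2 and 60.6 (log2 change -0.28, SE 0.03, adjusted p = 0.0209). Its footprints, 11.4 and 16.9 against 8.46 and 13.2 RPKM, overlapped. EIF3C, a core subunit, went from 15.3 and 16.3 to 11.9 and 11.9 FPKM (-0.38, SE 0.05, adjusted p = 0.0272). The near-identical copy EIF3CL had 14.9 and 13.7 FPKM against 12.8 and 12.7 and did not pass (adjusted p = 0.159). How reads were split between these copies is uncertain, and together they had 14 footprint reads in all 4 libraries. EIF3H just missed the RNA threshold in the other direction, with 169.7 and 168 FPKM against 188 and 194 (0.18, adjusted p = 0.0536).

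**Figure D3:**
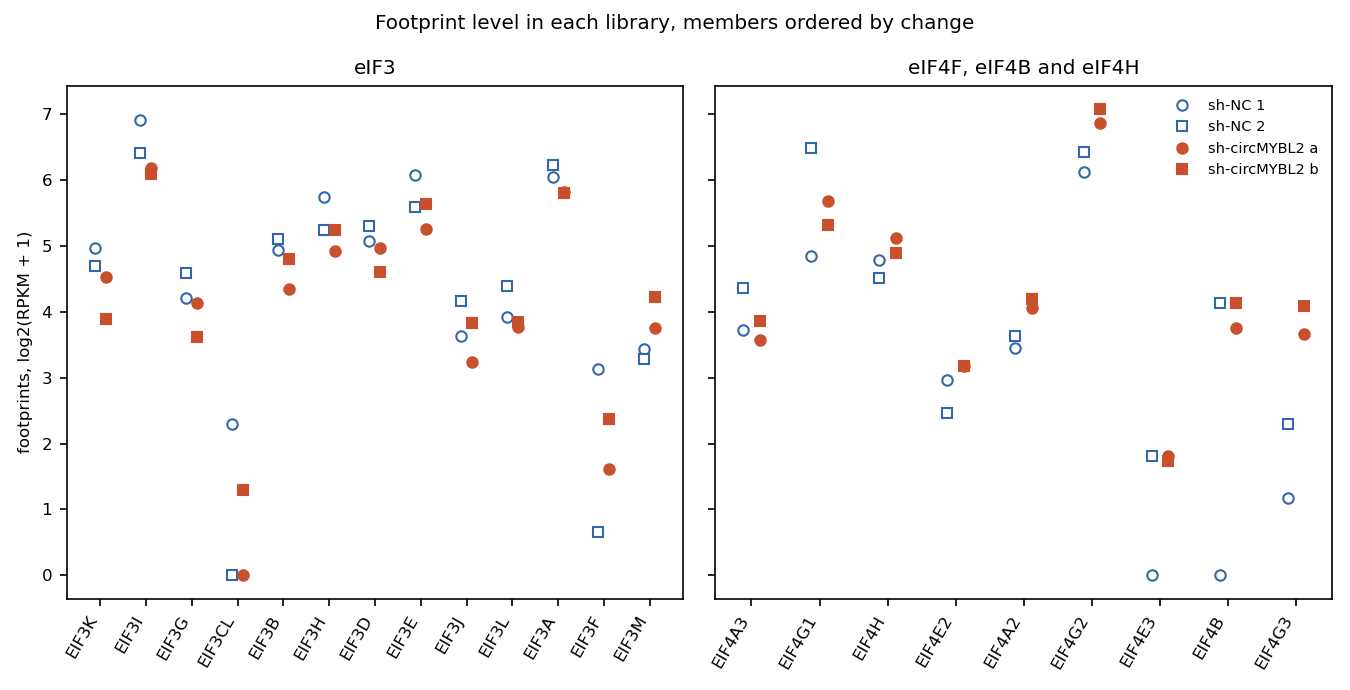
Footprint level as log2(RPKM + 1) in each library for the 13 tested eIF3 members (left) and the 9 tested members of the eIF4F, eIF4B and eIF4H group (right), ordered by their change. Open symbols are sh-NC libraries 1 (circle) and 2 (square), filled symbols sh-circMYBL2 libraries a (circle) and b (square); 8 eIF3 members have both filled symbols below both open ones, and 5 members on the right have both above.

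In the eIF4F, eIF4B and eIF4H group footprints were higher without overlap in 5 of 9 members, against 30.7% of all genes. Of the 9 tested in footprints, EIF4A2, EIF4E2, EIF4G2, EIF4G3 and EIF4H were higher without overlap and none was lower without overlap, against 10.9% of all genes. Of the 7 with footprints in every library, 5 were higher and 0 lower, beside 22.5% and 21.9% of such genes. The median log2 footprint change was 0.59, close to the 0.56 of all genes, so the group is not set apart from genes at large by that median. Among these 7 the median was 0.47, beside -0.013 for the 4438 such genes. Its pooled reads were 1.25 times the sh-NC level (counting interval 1.13 to 1.39), or 1.11 times (1.001 to 1.23) by protein-coding reads. Of protein-coding footprint reads the group took 0.267% and 0.399% (sh-NC) against 0.402% and 0.401% (sh-circMYBL2), so sh-NC library 1 alone stood apart. Under quantile normalization 4 of 9 were higher without overlap. Without sh-NC library 2, 8 of 9 were, but leaving out a library cannot make separate groups overlap, so that count is no check.

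Of the scaffolds, EIF4G3 had 1.27 and 3.93 footprint RPKM in sh-NC cells (1 and 7 reads), against 11.7 and 16.1 in sh-circMYBL2 cells (29 and 172 reads). The pooled read ratio was 4.90 (counting interval 2.44 to 11.5) and the log2 change 2.14 (SE 0.72, adjusted p = 0.350). Its RNA fell, from 29.9 and 30.5 FPKM to 25.7 and 25.5 (-0.23, SE 0.03, adjusted p = 0.0347). The footprints and the RNA of EIF4G3 thus lay on opposite sides, and the TE change was 2.37 (SE 0.58, adjusted p = 0.0786), which passed under voom (adjusted p = 0.0453). EIF4G2, a relative that lacks the eIF4E-binding part, had the most footprint reads of the group, 68.8 and 85.3 RPKM against 116 and 134 (ratio 1.63, interval 1.40 to 1.91). Its RNA stayed between 75.5 and 79.1 FPKM. EIF4G1, the main scaffold, had 28.0 and 88.7 RPKM with sh-NC, and the sh-circMYBL2 values of 50.5 and 39.0 lay between them. Its RNA stayed between 42.3 and 44.5 FPKM. The small RNA gene SNORD66 lies within the span of EIF4G1 and had 155, 1085, 673 and 1377 footprint reads. Its part in the EIF4G1 values was not tested.

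Of the helicases, EIF4A2 had lower RNA, 186 and 185 FPKM against 162 and 160.0 (log2 change -0.20, SE 0.03, adjusted p = 0.0338). Its footprints were higher without overlap, 9.91 and 11.4 RPKM against 15.7 and 17.3. EIF4A3, which works in the exon junction complex rather than in eIF4F, had 5.83 and 5.41 FPKM against 6.80 and 6.74, which did not pass (0.23, adjusted p = 0.0891), and 12.2 and 19.5 against 10.9 and 13.6 RPKM. EIF4A1, the most studied eIF4A, was listed at 2.47 to 3.22 FPKM and at 0 in all 4 footprint libraries. The readthrough gene SENP3-EIF4A1 covers 100% of its span, and 13 processed copies of it are listed, so its level here is uncertain. EIF4A1 and EIF4A2 therefore cannot be ranked against each other.

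EIF4B, an RNA-binding partner that raises helicase activity, was the single member whose RNA was called higher under the main settings. It went from 182 and 179 to 240.3 and 241 FPKM (log2 change 0.41, SE 0.03, adjusted p = 0.0117). Its footprints were 0 and 16.7 RPKM against 12.6 and 16.5, so the groups overlapped. EIF4H, its shorter relative, had 78.4 and 82.4 FPKM against 84.0 and 85.9 and footprints of 26.7 and 21.9 against 33.9 and 28.7 RPKM.

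The cap-binding proteins were low. EIF4E had 4.49 and 4.42 FPKM against 4.12 and 4.13, and 0, 0, 0 and 22 footprint reads. EIF4E2, which competes for the cap and represses some mRNAs, had 12.6 and 11.4 FPKM against 13.7 and 13.2 and footprints of 6.77 and 4.50 against 8.07 and 8.01 RPKM. EIF4E3 had 2.22 to 2.60 FPKM and 0, 5, 7 and 28 footprint reads. By FPKM, which is per length, EIF4E2 lay above EIF4E and EIF4E above EIF4E3 in every RNA library. EIF4E1B was listed at 0 in all 8 libraries.

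Of the eIF4E-binding proteins, EIF4EBP1 had 58.6 and 65.1 FPKM against 44.7 and 51.1. The groups did not overlap, but the change did not pass (log2 -0.36, SE 0.09, adjusted p = 0.0851). Its footprints, 79.3 and 70.3 RPKM against 72.0 and 48.5, overlapped. EIF4EBP2 had flat RNA, 8.92 to 9.72 FPKM, and footprints of 5.03 and 22.3 RPKM against 30.3 and 37.3 (pooled read ratio 2.12, counting interval 1.48 to 3.12). That change did not pass in footprints (1.55, SE 0.80, adjusted p = 0.558) or in TE (1.51, SE 0.87, adjusted p = 0.436). EIF4EBP3 had 1.15 to 2.09 FPKM and no footprint read, and the readthrough gene ANKHD1-EIF4EBP3 covers 100% of it. EIF4ENIF1, which carries eIF4E into the nucleus, had 5.29 and 5.63 FPKM against 5.67 and 6.08, with 0, 5, 2 and 11 footprint reads.

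The factors eIF1 and eIF1A check the start codon, and EIF1AD, related by name, was counted in their group. EIF1 RNA fell from 46.5 and 47.4 to 35.2 and 38.9 FPKM (log2 change -0.34, SE 0.06, adjusted p = 0.0464). Its footprints of 36.9 and 10.4 RPKM enclosed the sh-circMYBL2 values of 19.2 and 18.6. Its paralog EIF1B had 37.5 and 35.5 FPKM against 39.5 and 38.5, close to EIF1 by length-scaled RNA. EIF1B footprints were 0 and 0 against 6.06 and 13.6 RPKM, that is 0, 0, 3 and 29 reads. Against a floor of 3 reads for sh-NC as a group this is at least 2.08-fold higher by the authors' totals. That bound takes the 32 sh-circMYBL2 reads as exact, and 29 of them came from library b. Its TE change was 3.25 (SE 0.53, adjusted p = 0.0329), a size that depends on the added 1. EIF1AX, the scanning factor eIF1A, had 33.8 to 34.7 FPKM and footprints of 0 and 1.22 against 8.72 and 8.12 RPKM. With 1 sh-NC read against 50, its pooled ratio of 9.76 has a counting interval of 1.67 to 393. Its TE change of 2.64 missed the threshold (SE 0.57, adjusted p = 0.0578) but passed under voom (adjusted p = 0.0488). The median footprint change of these 5 members was 2.08, beside 0.56 for all genes, and 1.06 with the 2 members at 0 in sh-NC held at their bound. Those 2, EIF1B and EIF1AY, reached the filter only through sh-circMYBL2. EIF1 alone of the 5 had footprints in all 4 libraries, with a log2 change of -0.064, so no shift of the group is read from these medians.

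Among eIF2 and its partners, the subunits differed. EIF2S2 (eIF2 beta) RNA fell from 101 and 107 to 78.2 and 73.5 FPKM (log2 change -0.45, SE 0.05, adjusted p = 0.0237), the largest drop after EEF1A2 among the called members. EIF2S1 (eIF2 alpha, the subunit that stress kinases phosphorylate) had 14.6 and 13.7 against 16.2 and 15.7 FPKM, and EIF2S3 (eIF2 gamma) 349 and 353 against 367 and 374. Neither passed (adjusted p = 0.124 and 0.204), so EIF2S2 alone of the 3 subunits was called under the main settings. EIF2S1 footprints were higher without overlap, 6.45 and 12.4 RPKM against 18.5 and 34.5 (pooled ratio 2.98, counting interval 1.80 to 5.29). The span of EIF2S1 lies within that of GPHN, which had 29 footprint reads in all. EIF2S2 footprints overlapped, 9.15 and 46.6 against 14.5 and 28.7 RPKM, and so did those of EIF2S3, 45.5 and 46.5 against 43.4 and 53.5. EIF2A, a separate protein that can deliver initiator tRNA, had 28.1 to 30.2 FPKM and 0, 3, 3 and 82 footprint reads. EIF2D, a recycling factor, had 2.10 to 2.24 FPKM and 12 footprint reads in all.

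No eIF2B subunit passed in any comparison under the main settings. EIF2B5, the catalytic subunit, was the one with separate footprints among those tested, 12.8 and 23.6 RPKM against 7.45 and 8.35 (pooled ratio 0.403, counting interval 0.259 to 0.640). Its RNA was on the other side, 5.54 and 5.62 against 6.33 and 6.76 FPKM (adjusted p = 0.115). That RNA change was called when rescaled to protein-coding genes (0.31, limma adjusted p = 0.0385) and under voom (0.23, adjusted p = 0.0303). EIF2B3 had 7.76 and 7.50 against 6.40 and 6.88 FPKM and footprints of 0, 7.90, 6.79 and 6.32 RPKM. The pooled footprint ratio of the 5 subunits was 0.645 (counting interval 0.480 to 0.879), carried by 59 sh-NC reads of which EIF2B5 gave 31. Of protein-coding footprint reads they took 0.0178% and 0.0598% (sh-NC) against 0.0239% and 0.0282% (sh-circMYBL2). The sh-circMYBL2 shares lay between the sh-NC ones, a spread that the counting interval leaves out, so no shift of the complex is read from that ratio. EIF2B1, EIF2B2 and EIF2B4 had 20, 0 and 3 sh-NC footprint reads. EIF2B2, too low to be tested in footprints, was higher without overlap, from 0, 0, 2 and 3 reads.

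For subunit joining, EIF5, which triggers GTP hydrolysis by eIF2, fell in RNA from 33.2 and 34.8 to 26.3 and 26.3 FPKM (log2 change -0.36, SE 0.04, adjusted p = 0.0218). Its footprints were higher without overlap, 4.29 and 17.7 against 21.3 and 27.8 RPKM (pooled ratio 1.95, counting interval 1.35 to 2.92). The small RNA gene SNORA28 lies within the span of EIF5 and had 1, 53, 86 and 88 footprint reads. Its part in the EIF5 values was not tested. EIF5, EIF4G3 and EIF4A2 were thus the called members with lower RNA whose footprints were higher without overlap. Footprints were higher without overlap in 30.7% of all 9431 genes tested, so this is not read as a difference from genes at large. Rescaled to protein-coding genes, EIF5 kept its RNA call, while EIF4G3 (-0.10, adjusted p = 0.105) and EIF4A2 (-0.068, adjusted p = 0.162) lost theirs. EIF5B, the GTPase that joins the large subunit, had 36.3 to 40.9 FPKM and footprints of 15.4 and 8.20 against 17.1 and 20.2 RPKM (ratio 1.88, interval 1.21 to 3.07). EIF6, which keeps the large subunit from joining early, had 3.95 and 4.75 against 5.50 and 5.51 FPKM (adjusted p = 0.141) and 0, 6, 6 and 52 footprint reads. All 3 footprint changes were above 0, with a median of 1.35, and none passed.

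EIF5A, which carries hypusine and relieves stalled ribosomes, had 62.6 and 63.2 FPKM against 60.1 and 60.7. Its footprints overlapped, 90.7 and 44.0 RPKM against 71.3 and 45.0. Its paralogs were near the floor: EIF5A2 at 0.175 to 0.258 FPKM with 1 footprint read, and EIF5AL1 at 0.548 to 0.706 FPKM with 9.

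In eEF1, EEF1A2 had the largest RNA change of any member. EEF1A2 is the eEF1A form of muscle and neurons that also appears in tumours. It fell from 4.98 and 5.16 to 2.05 and 1.79 FPKM (log2 change -1.06, SE 0.08, adjusted p = 0.0120). Its footprints were lower without overlap, 18.2 and 13.4 against 3.85 and 7.16 RPKM, from 3, 5, 2 and 16 reads. The footprint change of -1.40 (SE 0.59, adjusted p = 0.466) did not pass, and the TE change of -0.34 (SE 0.50, adjusted p = 0.764) did not either. EEF1A1, the form of most tissues, was the most abundant member by FPKM at 973 and 942 against 946 and 940.0, and its footprints overlapped at 40.9 and 58.0 against 56.5 and 53.2 RPKM. Its 39 listed processed copies held 8.90% of the RNA reads of the family, EEF1A1P5 the most, so the split between EEF1A1 and its copies is uncertain.

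EEF1B2, the exchange factor that reloads eEF1A with GTP, had 448 and 439 FPKM against 501 and 506. This just missed the threshold (log2 change 0.18, SE 0.03, adjusted p = 0.0503). Despite that RNA level its sh-NC footprint libraries were both at 0, with 18.2 and 25.3 RPKM (9 and 54 reads) with sh-circMYBL2. Against a floor of 3 reads for sh-NC as a group this is at least 4.10-fold higher by the authors' totals. That bound takes the 63 sh-circMYBL2 reads as exact. Its TE change was 4.31 (SE 0.31, adjusted p = 0.0165). Without any 1 input RNA library neither EEF1B2 nor EIF1B passed in TE (adjusted p of 0.274 to 0.286 for EEF1B2 and 0.274 to 0.294 for EIF1B), and under voom EIF1B did not (0.0819).

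EEF1D, another exchange subunit, had flat RNA, 35.2 to 37.3 FPKM, and footprints lower without overlap, 23.3 and 18.9 against 10.7 and 5.74 RPKM. Its pooled read ratio was 0.329 (counting interval 0.230 to 0.475), and its TE change of -1.31 did not pass (SE 0.44, adjusted p = 0.174). EEF1B2 and EEF1D share the exchange function, and their footprint changes had opposite signs. Neither footprint change passed, and that of EEF1B2 rests on 0 sh-NC reads, so no difference between these subunits is shown. EEF1G, the structural eEF1 subunit, was listed at 0 in all 8 libraries, so no value of it is used.

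EEF2, the translocase, held the most footprint reads of any member, 91, 412, 456 and 1433. Its footprint levels of 275 and 551 RPKM in sh-NC cells enclosed the sh-circMYBL2 values of 437 and 319.6. Its RNA was 385 and 388 against 424 and 443 FPKM and did not pass (log2 change 0.16, SE 0.04, adjusted p = 0.0751). EEF2K, the kinase that switches eEF2 off, had 4.41 and 5.04 against 5.14 and 5.19 FPKM. Its footprints were 1.52 and 7.39 against 8.67 and 7.39 RPKM, from 1, 11, 18 and 66 reads.

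The methyltransferases of elongation factors were thinly covered. None of the 4 passed in RNA, where EEF1AKMT1 had 8.79 to 9.76 FPKM, EEF1AKMT2 4.16 to 4.79, EEF1AKMT3 1.73 to 1.99 and EEF2KMT 1.03 to 1.59. EEF1AKMT2 had 0, 0, 2 and 12 footprint reads, which scaled to under the floor of 3 reads, so no fold is given. EEF1AKMT3 had 0, 2, 0 and 8.

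The start of each transcript was read from RefSeq promoters (GRCh38.p14) for 49 members, since TOP mRNAs are defined by it. EEF2KMT was also listed there, without a pyrimidine start. Its entry lay on another chromosome than the gene and was left out. The windows below run from 15 bases before the annotated start to 15 from it, 5′ to 3′, with the pyrimidine run that begins at a C start in capitals. They are shown so that the starts can be set beside the footprint values given next: the first 6 have such a start and the last 3 lack it.
EEF1A1: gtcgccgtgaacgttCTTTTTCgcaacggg
EEF2: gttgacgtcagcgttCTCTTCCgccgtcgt
EIF4B: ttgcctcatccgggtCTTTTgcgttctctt
EIF4A2: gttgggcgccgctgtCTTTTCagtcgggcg
EIF2S3: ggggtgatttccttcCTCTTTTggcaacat
EIF3F: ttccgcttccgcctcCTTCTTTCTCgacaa
EEF1B2: gccggaagtggccccagcctcgaggccggg
EIF4EBP2: ctcccgccttcgcccgcttccggtcgtcgt
EIF4G2: gaggttgtcggaagcacttccctaacttgc
The windows lie at chr6:73521018-73521047 (minus strand, EEF1A1), chr19:3985449-3985478 (minus, EEF2), chr12:53006441-53006470 (plus, EIF4B), chr3:186783562-186783591 (plus, EIF4A2) and chrX:24054941-24054970 (plus, EIF2S3). Those of the others are chr11:7987322-7987351 (plus, EIF3F), chr2:206159594-206159623 (plus, EEF1B2), chr10:70404130-70404159 (plus, EIF4EBP2) and chr11:10807982-10808011 (minus, EIF4G2).

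A start with C and a run of at least 5 pyrimidines was found in 11 of the 49 members (22.4%), read on the transcribed strand, and in 1104 of all 27305 starts in the table (4.04%). The others with it were EIF2A, EIF2D, EIF3D, EIF3K and EIF3M. EEF1B2, which is known as a TOP mRNA, lacked it at the annotated start. The 10 such members tested in TE had a median input RNA of 115 FPKM, against 17.5 for the 29 with another start. Their footprints for each unit of RNA, RPKM over FPKM, had a median of 0.316 against 0.736. Over all 6227 genes tested with a listed start the median was 0.778, and over the 370 of them with such a start 0.611. The 2 tables were scaled separately, so this ratio ranks genes but has no absolute meaning.

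Single members spread widely on that ratio. EEF1A1 stood at 0.0516 with sh-NC and 0.0581 with sh-circMYBL2, EIF4B at 0.0462 and 0.0605, EIF4A2 at 0.0576 and 0.103, and EIF2S3 at 0.131 and 0.131. EEF2, with the same kind of start, stood at 1.07 and 0.874. EIF4EBP2 (1.47 and 3.54) and EIF3I (3.12 and 1.90) were among the highest. Processed copies, which could take short reads from their parent, were listed for 21 of the 50 members, whose median ratio was 0.404 against 0.546 for the 29 without; their part in the ratio was not tested. The median log2 footprint change was 0.13 for the 10 members with a pyrimidine start and 0.80 for the 29 others, beside 0.52 and 0.61 for the matching 370 and 6227 genes. Of the 10, 2 (EIF3M and EIF4A2) were higher without overlap and 2 (EIF3D and EIF3K) lower, and of the 29 others 14 were higher and 3 lower. Among all genes with a pyrimidine start 119 of 370 were higher and 45 lower, and among all with a listed start 2118 of 6227 were higher and 653 lower, so these counts set nothing apart in the members.

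**Figure D4:**
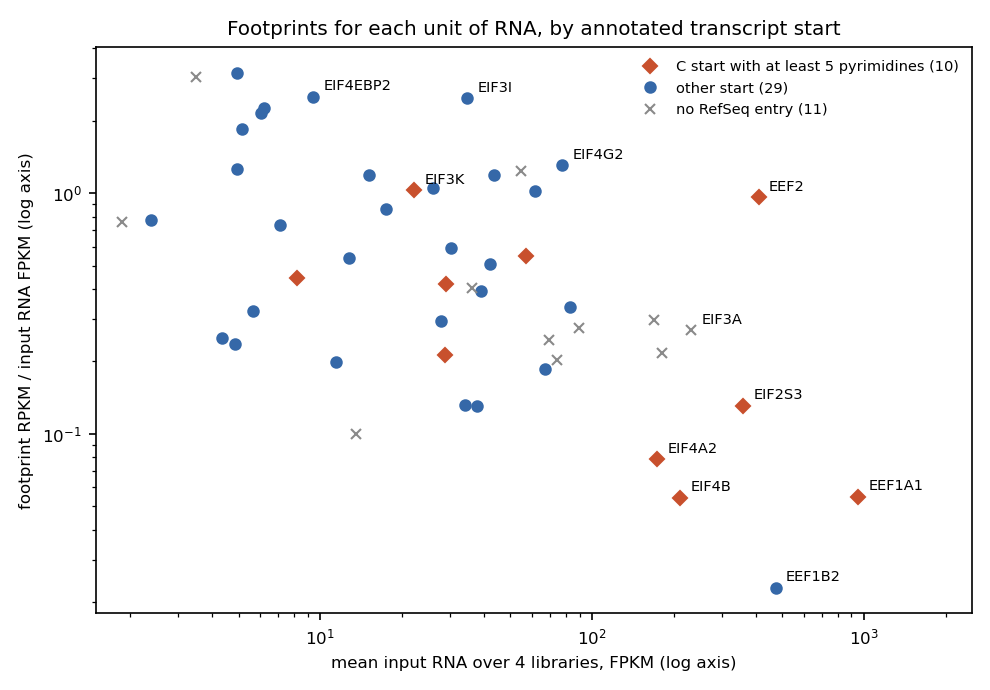
Footprint RPKM over input RNA FPKM, pooled over both hairpins (y, log axis), against mean input RNA over 4 libraries in FPKM (x, log axis) for the 50 members tested in TE. Diamonds are members whose annotated start is a C followed by pyrimidines, circles members with another start and crosses those with no listed start; EEF1A1, EIF4B, EIF4A2 and EEF1B2 lie at the lower right and EEF2 above them near 1.

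The 9 members most often described as TOP mRNAs (EEF1A1, EEF1B2, EEF1D, EEF1G, EEF2, EIF3E, EIF3F, EIF3H and EIF4B) gave 8 tested in each comparison. In RNA 1 of 8 rose (EIF4B) and none fell, beside 4.92% and 3.96% of all genes, with a median of 0.10. In footprints none passed, with a median of 0.02 beside 0.56 for all genes, and in TE EEF1B2 passed, with a median of -0.08 beside 0.57. EIF3E, an eIF3 subunit, had 173 and 166 FPKM against 172 and 165, and footprints of 66.8 and 47.5 against 37.3 and 48.8 RPKM, which overlapped.

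Of 40 other translation genes, such as poly(A)-binding proteins, release factors and recycling factors, 37 were tested in RNA. PAIP2 and NCBP1 rose and EEF1E1 fell, counts near the 4.92% and 3.96% of all genes, with a list median of -0.03. EEF1E1, a scaffold of the aminoacyl-tRNA synthetase complex, went from 29.7 and 29.3 to 20.6 and 19.9 FPKM (log2 change -0.52, SE 0.04, adjusted p = 0.0117). PAIP2, which blocks poly(A)-binding protein, went from 30.4 and 30.6 to 35.6 and 37.5 FPKM (0.25, SE 0.04, adjusted p = 0.0402). NCBP1, the large nuclear cap-binding subunit, went from 24.6 and 25.8 to 30.0 and 30.2 FPKM (0.25, SE 0.04, adjusted p = 0.0402). None of 36 passed in footprints (median 0.52) and none of 35 in TE (median 0.54).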

How the data were processed

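Groups came from the sample titles, and a number marks the library. The sh-circMYBL2 footprint columns end in 1 and 2 after a name that in all titles ends in 1, so whether this number marks the library or the hairpin is not shown, and they are called a and b in that order. The submitters' processing notes name the build hg38 and, as tools, featureCounts, DESeq2, HISAT2, Bowtie and cutadapt; their versions, roles and strand setting are absent from the sources used here. Without the strand, reads of overlapping and antisense genes cannot be told apart. The authors deposited footprints as RPKM and input RNA as FPKM, in which reads are divided by gene length and by a total of each library.

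The members, complexes and lists were chosen with earlier results of these data known. Neither table gives counts, but values times length were whole multiples of a step. This gave back whole reads (tolerance 0.02 reads) for the 30194 genes above 0 in a library, except 1; of microRNA values, 97.8% to 99.4% came out whole. Recovered reads gave depths, Wilson and exact binomial intervals at 95%, and the floor of 3 reads, not the main tests. The totals are not the reads on genes, which were 300340 in the second sh-NC footprint library for a total of 185632.

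Tests used limma 3.58.1 in R 4.3.3 (lmFit, eBayes with trend, two-sided) on log2(value + 1) where the mean over the 4 libraries of a table reached 1. Tested on simulated data at the real depths, the RNA test found most genes changed 2-fold up or down. The footprint and TE tests found nearly none of these, and their few calls fell on unchanged genes. Larger changes were not simulated, so how these tests do with them is not known. TE was fitted over all 8 libraries as a hairpin-by-assay interaction, with 1 variance per gene over both assays although footprints varied more, so its p-values may be too small. The Benjamini-Hochberg adjustment ran over all genes tested, with a threshold of 0.05. A log2 change is on the log2(value + 1) scale and understates the change of low genes. With 2 libraries against 2 an exact permutation test could not reach a p below 0.333. The genes named with values were those past the threshold, in each complex the 2 of smallest p in RNA and in TE, the paralog pairs, and others picked after their values were seen. The alternatives were other pseudocounts, filters and scalings, voom on recovered reads, a replicate block and leaving out each library. Counts of eIF3 and eIF4F members without overlap, and their alternatives, were added after seeing the data. Positions and starts came from RefSeq GRCh38.p14, matched by symbol, and were used for 62 and 49 members.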

Additional observations from a re-analysis of the deposited data

Results flagged for a closer look

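The interaction term of limma, which sets the change in footprints against that in RNA, passed for 2 members that had footprints in the sh-circMYBL2 group only. EEF1B2 had a TE log2 change of 4.31 (adjusted p = 0.0165) and EIF1B one of 3.25 (adjusted p = 0.0329). Both rest on 0 sh-NC footprint reads, beside 63 and 32 reads with sh-circMYBL2, and reached the filter on the mean only through that group. Of all 417 genes so called, 396 share this, so the calls are listed and not counted as shown differences. No group had more than 2 libraries, so no library could be tested as standing apart from its group.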

How the results depend on the processing

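Depth limits the footprint results: 3 reads in sh-NC library 1 equal 36.5 RPM of its scaling total and in sh-circMYBL2 library b 2.69 RPM, so a level under that cannot be told from 0. In input RNA, members called higher numbered 2 with a pseudocount of 0.1, 3 with a mean of at least 5, 3 with quantile normalization, 16 when rescaled to protein-coding genes and 12 with voom. Over all genes the same settings called 581, 664, 596, 1930 and 1691 higher, beside 615 under the main settings. With no filter on low values 0 were higher and 0 lower, beside 56 and 41 of all genes. Rescaling left 5 lower, beside 353 of all genes. With any 1 RNA library left out, 0 were higher and 0 lower, in a fit with fewer degrees of freedom, where the lone library of a hairpin is assumed to vary like the other group. With the replicate block 0 were higher and 0 lower, and 0 of all genes were called. The numbers are not shown to pair the libraries, since differences between same-numbered libraries correlated at 0.0265 over 12489 genes; the number that ends the sh-circMYBL2 footprint columns is not shown to be the replicate, so no block was fitted there or in TE.

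In footprints, leaving out libraries gave 0 to 1 members higher and 0 lower. In TE, members called higher numbered 0 with a pseudocount of 5, 1 with a mean of at least 5 and 0 with quantile normalization. Over all genes these settings called 2, 39 and 0 higher. Leaving out 1 library gave 0 to 16 higher (10 without sh-NC footprint library 1, 16 without library 2) and 0 to 7 lower (7 and 5 without those, and 1 without sh-circMYBL2 footprint library a). Without overlap, eIF3 members lower numbered 8 to 11 over the libraries left out and 5 with quantile normalization. The eIF4F, eIF4B and eIF4H members higher numbered 5 to 8 over the libraries left out and 4 with quantile normalization. Leaving out a library cannot make separate groups overlap, so in both complexes those counts could not fall and are no check. The eIF3 median stayed between -0.49 and -0.26 in footprints and between -0.69 and -0.43 in TE over every alternative run.

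Some changes that did not pass turned their sign. Rescaling to protein-coding genes gave 0.074 for EIF5A and 0.053 for EEF1AKMT1 in RNA, and -0.16 for EIF4EBP1 in TE. Quantile normalization gave, in footprints, 0.99 for EEF2, 0.015 for EIF3A, 0.00027 for EIF4EBP1 and 0.13 for EIF5A, and in TE 0.55 for EEF2 and 0.13 for EIF5A. With voom EEF2 had 0.021 in footprints and EIF4EBP1 -0.063 in TE. Leaving out 1 footprint or RNA library turned EEF2, EIF5A, EIF2B3 and EEF1AKMT3 in footprints and TE, and EEF2K and EIF4EBP1 in TE. Over the libraries left out, footprint changes ran from -0.56 to 0.44 for EEF2, -0.67 to 0.36 for EIF5A, -0.24 to 2.92 for EIF2B3 and -1.28 to 0.64 for EEF1AKMT3, and TE changes from -0.72 to 0.28 for EEF2, -0.61 to 0.42 for EIF5A, -0.061 to 3.09 for EIF2B3, -1.18 to 0.74 for EEF1AKMT3, -0.0069 to 1.73 for EEF2K and -0.25 to 0.31 for EIF4EBP1. The cause was not tested.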
